A study of Mus musculus with 6 samples.

Results

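The genes described here are 9 members of the serpin family that the study's count table lists by symbol: Serpina3f, Serpina3g, Serpinb1a, Serpinb2, Serpinb6a, Serpinb8, Serpinb9, Serpinf1 and Serping1. They are 9 of the 25 serpin rows among the 16254 genes of the table. They were chosen with the counts of the EV against sham comparison already seen and Serpina3g was picked on its large difference in those counts, so the differences of the 9 genes between the groups are given as a description and carry no p-value. The question is how the serpins, and the proteases they act on, differed in eosinophils that received vesicles from activated TH2 cells.

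Eosinophils were grown from the bone marrow of C57BL/6 mice that were 6 to 12 weeks old. FLT3 ligand and stem cell factor were given for 4 days and IL-5 for the following 8 days, so all cultures of both groups had the same cytokine history up to treatment on day 12. The EV group (n = 3) then received 5e+09 extracellular vesicles (EVs) per ml from activated TH2 cells for 24 hours, and the sham group (n = 3) received unconditioned medium carried through the same isolation. The labels call the 3 samples of a group biological replicates without tying them to separate mice, so the p-values given for other genes measure the spread between these samples, which may be technical in part.

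The libraries held 23697620 to 37874426 estimated counts. Calls on genes other than the 9 were made at an adjusted p under 0.01 (edgeR, all genes tested together), and normalized counts are counts divided by the library's TMM-scaled size. Eosinophil markers were abundant in every sample, with summed normalized counts of 935698 to 1178100 in sham and 1336620 to 1493510 in EV samples, and 9 of 12 were higher with EVs. Markers listed for other cell types were detected too. Bulk counts do not show which cells the RNA of a listed gene, such as Adgre1, came from. Macrophage markers summed to 84572 to 133279 in sham and 45427 to 52345 in EV samples (11 of 12 in the table, 9 lower and 1, Adgre1, higher). Adgre1 had 21206, 21095 and 21678 normalized counts in sham and 32085, 33532 and 32675 in EV samples, most of the EV sums. The sums thus fell less than most of the listed genes, whose median log2 fold change was -2.56 (11 tested). Stromal markers summed to 12786 to 23965 in sham and 1843 to 8495 in EV samples (10 of 10 in the table, 7 tested, 1 lower). Mast cell and basophil markers summed to 7669 to 9502 in sham and 17117 to 20119 in EV samples (9 of 10 tested, 7 higher), and neutrophil markers to 21427 to 24910 and 16903 to 20820 (9 of 10 tested, 1 higher and 5 lower). T cell markers stayed between 83.8 and 230.4 in all 6 samples, with 2 of 10 tested and none called. In bulk samples, fewer cells of a type and less RNA per cell cannot be told apart. Normalized counts are also relative to the rest of the library, so a list can fall when the RNA of other cells rises. The paper reports that eosinophil survival was higher with activated T cell EVs than without treatment. The part of eosinophil survival in these sums was not tested. The EV sample that stood apart was EV replicate 1, whose stromal sum of 8495 compared with 1843 and 2407 in EV replicates 2 and 3.

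Serpins are protease inhibitors that work as suicide substrates. The target protease cuts an exposed loop near the end of the protein, the reactive centre loop, and the serpin then snaps into a new fold that traps the enzyme, so the residues of the loop set which proteases are caught. Clade A serpins are mostly secreted, although mouse Serpina3g (Spi2A) acts inside cells against cathepsins. Clade B serpins lack a cleaved signal peptide and mainly stay in the cytosol, where they shield granule-bearing leukocytes from proteases that leak from their own granules. A few family members, such as Serpinf1 (PEDF), inhibit no protease at all.

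Serpina3f and Serpina3g lie next to each other on mouse chromosome 12 (GRCm38, chr12:104214544-104221129 and chr12:104236147-104241939). Their coding sequences, taken as the longest open reading frames, are 1338 bases in Serpina3f and 747 in Serpina3g. They are 87.4% identical over the 747 bases that align, and over the loop region they are less alike. The stretch of the last exon that encodes the loop region, from the conserved hinge codons to the conserved codons after the loop, is shown here because it tells the 2 paralogs apart and, as background, this loop gives a serpin its targets. Capitals mark the bases that differ between the genes, on the plus strand (GRCm38, chr12:104220245-104220343 in exon 6 of 6 and chr12:104241072-104241167 in exon 5 of 5).
Serpina3f: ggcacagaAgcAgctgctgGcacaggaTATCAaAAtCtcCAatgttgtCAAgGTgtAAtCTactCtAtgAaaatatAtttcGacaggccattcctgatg
Serpina3g: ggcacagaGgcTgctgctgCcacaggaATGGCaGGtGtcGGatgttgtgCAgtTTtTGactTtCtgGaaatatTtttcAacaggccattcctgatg
Over this stretch 72 aligned bases were the same, an identity of 75%, with a gap of 3 bases. None of the 31-base words of either loop occurs in another gene's transcripts. Over the whole transcripts, 28.4% of the 31-base words of Serpina3g and 27.3% of those of Serpina3f occur in other genes, most often in each other (16.2% and 15.3%). Reads from those shared stretches can be divided between the genes only by estimation, while reads over the loop belong to 1 gene.

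Parts of the sequences before the 2 starts are also alike. The 250 bases before each start (RefSeq, GRCm38, plus strand, chr12:104214294-104214543 and chr12:104235897-104236146) are printed because both genes were near 0 in sham and had higher estimated counts with EVs. Capitals mark a match to the letters TTCNNNGAA, the GAS motif that STAT factors can bind, searched on both strands.
Serpina3f: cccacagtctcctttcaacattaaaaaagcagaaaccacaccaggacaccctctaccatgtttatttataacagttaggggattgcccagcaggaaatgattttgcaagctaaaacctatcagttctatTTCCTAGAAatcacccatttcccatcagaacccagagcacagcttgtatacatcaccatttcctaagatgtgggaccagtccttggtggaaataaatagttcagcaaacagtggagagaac
Serpina3g: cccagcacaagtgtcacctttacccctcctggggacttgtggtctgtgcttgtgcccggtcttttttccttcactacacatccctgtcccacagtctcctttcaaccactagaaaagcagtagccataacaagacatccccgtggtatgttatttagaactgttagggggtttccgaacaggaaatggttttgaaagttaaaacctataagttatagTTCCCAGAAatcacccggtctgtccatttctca
The match starts 121 bases before the start of Serpina3f used here and 33 bases before that of Serpina3g. A second RefSeq start of Serpina3f puts the same match at -210. Of the 250 bases, the 152 that align between the 2 promoters are 82.9% identical. Among the 9 genes, 7 have RefSeq promoter windows (250 bases before to 50 after a start), 10 windows in all since a gene can have several starts. Of these 10 windows 6 hold the motif, from 4 genes, Serpinb2 and Serpinb6a being the others, and the paired windows of Serpina3f and of Serpinb2 overlap. Of all 32851 windows of that length, 8.3% hold it, and among the other serpins 3 of 17 windows, from 2 of 14 genes, do. These genes are Serpina11 and Serpina3i. The match of Serpina3i has the same letters as that of Serpina3g and starts 102 bases before a start, and Serpina3i was at 0 in all samples. Serpinb6a, which was lower with EVs, holds 2 matches in a single window. The same letters with 4 free bases in place of 3, the spacing that STAT6 favours, were in 1 of the 10 windows (Serpinb6a) and in 6.95% of all windows. An interferon-type element, taken as 2 copies of GAAA set 2 bases apart, was in 2 of the 10 (Serpinb9 and Serpinb6a) and in 3.44% of all windows, both strands searched for each. A match is only these letters in this window.

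Serpina3g, an intracellular inhibitor of cysteine cathepsins, differed most between the groups among the members detected in both. It had 0, 9.80 and 8.51 normalized counts in the 3 sham samples and 1590, 1233 and 1226 in the 3 EV samples. The log2 fold change was 7.90 (SE 0.385). It was 7.01 with all Serpina3 genes summed to 1 row and 7.19 without sham replicate 1, the sample at 0. No sham sample came near the EV samples, and the sham values rest on 0, 8 and 7.185 estimated counts. Its means were 6.10 ± 5.33 in sham and 1350 ± 208 in EV samples (SD, n = 3).

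Serpina3f, the neighbouring paralog, was not detected in any sham sample and gave 53.9, 51.4 and 29.6 normalized counts in EV samples (45.0 ± 13.4, SD, n = 3). Set against a floor of 3 counts per library, it was at least 13.5-fold higher. The EV values correspond to 54.066, 60.001 and 34 estimated counts. Per kb of transcript, Serpina3g was 36.8, 29.9 and 51.7 times as abundant as Serpina3f in the 3 EV samples, so their estimated levels were very different. Of the 31-base words of Serpina3f, 15.3% occur in Serpina3g. Estimated counts per gene do not show whether any reads fell on sequence found only in Serpina3f. Of the other Serpina3 genes of the table, Serpina3i was at 0 in all samples and Serpina3b at 0 in the EV samples against 3, 10 and 1 counts in sham, too few to give a fold change.

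Serpinb2 (PAI-2), which inhibits the urokinase plasminogen activator and is a well-known product of stimulated myeloid cells, was the most abundant serpin in both groups. It had 8773, 6971 and 9989 normalized counts in sham and 20996, 20228 and 24573 in EV samples. The log2 fold change was 1.35 (SE 0.122). The groups do not overlap, and the difference of their means (8578 ± 1519 and 21932 ± 2319, SD, n = 3) is larger than the SD of either. Serpinb2 shares 11.2% of its transcript words with its neighbour Serpinb10, so part of its reads could be divided between the genes only by estimation.

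Serpinb1a, an inhibitor of the elastase-type and chymotrypsin-type proteases of neutrophil granules, was the member with the smallest difference. It had 1575, 1389 and 1663 normalized counts in sham and 1484, 1402 and 1350 in EV samples. The groups overlap, and the log2 fold change was -0.13 (SE 0.0855). Of its transcript words, 10.1% occur in other genes, most in Serpinb1b.

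Serpinb6a, which inhibits cathepsin G and trypsin-type proteases in the cytosol, was lower with EVs. It had 2818, 3641 and 3219 normalized counts in sham and 1140, 1205 and 1178 in EV samples. The log2 fold change was -1.46 (SE 0.0939). The EV samples are tightly grouped (1174 ± 32.7) and well under the sham samples (3226 ± 412, SD, n = 3).

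Serpinb8, an inhibitor of the proprotein convertase furin, had 106, 115 and 109 normalized counts in sham and 17.0, 15.4 and 11.3 in EV samples. The log2 fold change was -2.91 (SE 0.372), the lowest of the 8 members tested. Its sham samples are close together and the EV samples all fall far under them.

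Serpinb9 (SPI6), which protects lymphocytes and dendritic cells from granzyme B, had 150.5, 283 and 244 normalized counts in sham and 36.0, 59.1 and 42.6 in EV samples. The log2 fold change was -2.29 (SE 0.309). The sham samples are more scattered than those of Serpinb8 (226 ± 68.2 against 110.3 ± 4.51, SD, n = 3), yet none of them comes down to the EV samples.

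**Figure D1:**
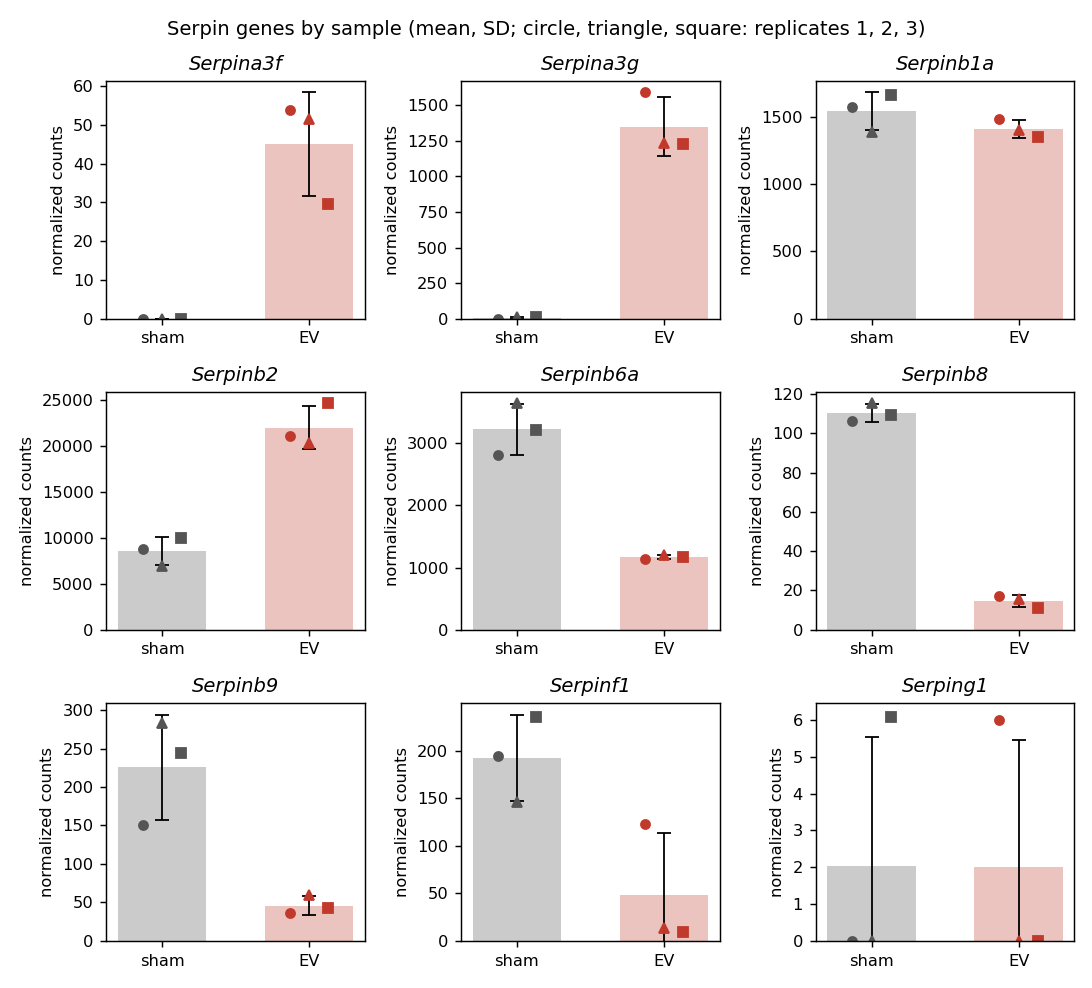
Normalized counts of each described serpin in every sample, sham and EV (vertical axes start at 0; points are samples). Serpina3g sits at 0 to 9.80 in sham and at 1226 to 1590 in EV samples, Serpinb2 also lies higher with EVs, Serpinb1a overlaps between the groups, and Serpinb6a, Serpinb8 and Serpinb9 lie lower.

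The secreted members behaved less evenly. Serpinf1 (PEDF), a non-inhibitory serpin that restrains vessel growth, had 195, 146 and 236 normalized counts in sham and 123, 13.7 and 9.57 in EV samples. Its log2 fold change was -2.00 (SE 0.757), and without EV replicate 1 it was -4.02. The groups do not overlap, but the EV sample at 123 lies close to the lowest sham sample at 146. EV replicate 1 was also the EV sample with the highest stromal sum, and sham replicate 2, the lowest sham sample, had the lowest sham stromal sum. Whether stromal RNA has a part in the Serpinf1 values was not tested. Serping1, the C1 inhibitor of complement and contact enzymes, reached 5 and 6 counts in 1 sham and 1 EV sample and 0 in the others, so it was removed by the low-count filter and nothing can be said of a difference.

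Across the 9 genes, 7 had groups that do not overlap. Of all genes tested, 49.6% had no overlap (24.8% higher and 24.7% lower with EVs). Of the 8 members tested, 7 had a fold change of 2 or more in either direction, against 17.3% of all genes. 3 members were higher and 5 were lower, with a median log2 fold change of -0.79 against -0.0140 for all genes tested. Since this contrast was used to choose the members, nothing is read from these shares.

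Length matters when genes are compared with each other. On the scale of normalized counts per kb of the longest protein-coding transcript, the sham order was Serpinb2 (4298 ± 761), Serpinb6a (1950 ± 249), Serpinb1a (804 ± 73.2), Serpinf1 (105 ± 24.6), Serpinb9 (65.1 ± 19.6), Serpinb8 (24.1 ± 0.985) and Serpina3g (3.39 ± 2.95), with Serpina3f at 0. Serpinf1 and Serpinb9 overlap over their samples in sham. With EVs, Serpinb2 stood at 10988 ± 1162, Serpina3g at 749 ± 115, Serpinb1a at 736 ± 35.1 and Serpinb6a at 710 ± 19.8 (SD, n = 3 for all). The last 3 overlap over their samples, so Serpina3g was near the bottom of the order in sham and at the level of Serpinb1a and Serpinb6a with EVs. Among the 12198 genes tested that have a transcript length, the per-kb level of Serpina3g stood at percentile 2.21 in sham and 78.6 with EVs, while Serpinb6a stood at 92.8 and 77.6 and Serpinb2 at 97.1 and 98.6. Below them Serpinf1 (26.6 ± 35.1), Serpina3f (20.0 ± 5.96) and Serpinb9 (13.2 ± 3.44) overlap, and Serpinb8 was lowest of the members tested (3.18 ± 0.639). Serping1, not tested, stood at 1.15 ± 1.98 in sham and 1.13 ± 1.96 with EVs.

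Serpinb2 had the largest share of the members' summed level in every sample. This share of the summed per-kb level of the members was 62.0%, 52.8% and 62.2% in sham and 81.1%, 82.2% and 85.3% in EV samples. Serpina3g took up to 0.0823% in sham and 6.80%, 5.55% and 4.71% with EVs. Over all 25 serpin rows, the share of Serpinb2 was 53.0%, 46.4% and 54.1% in sham and 77.6%, 79.1% and 82.7% in EV samples. The members' sum itself went from 7093, 6610 and 8049 to 12972, 12329 and 14440, so these shares describe a larger total that was more strongly weighted to Serpinb2.

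**Figure D2:**
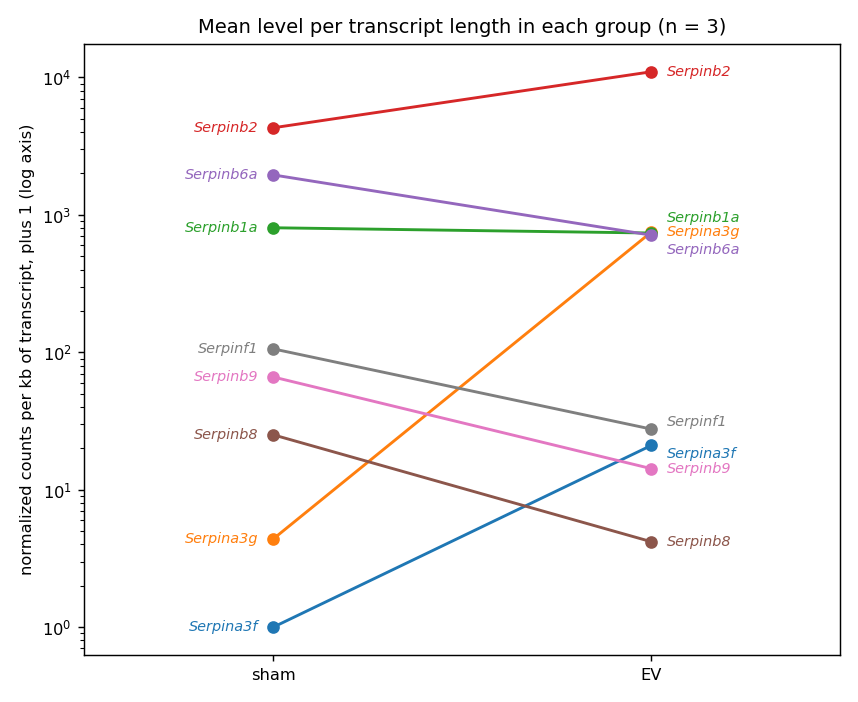
Mean normalized counts per kb of transcript plus 1 (log axis) in sham and EV, a line per serpin (n = 3 per group). Serpinb2 is highest in both groups, Serpina3g lies near Serpinb1a and Serpinb6a with EVs, and Serpinb8 is the lowest of the serpins drawn with EVs. Serping1 is not drawn.

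The clade B members sit in 2 clusters. Serpinb2 and Serpinb8 lie on chromosome 1 (chr1:107500892-107525600 and chr1:107589926-107608978), with Serpinb10 between them, and Serpinb1a (chr13:32842092-32853206), Serpinb9 (chr13:32997061-33017955) and Serpinb6a (chr13:33917918-34002794) lie on chromosome 13. Serpinf1 lies at chr11:75410029-75422623 and Serping1 at chr2:84765360-84775444. Neighbours on chromosome 1 went in opposite directions: Serpinb2 was higher and Serpinb8 lower with EVs, while Serpinb10 (bomapin, a serpin of blood cell progenitors) gave a log2 fold change of 0.72 (SE 0.350, adjusted p = 0.143 in edgeR). On chromosome 13, Serpinb6b and Serpinb9b, whose coding sequences are 86.4% and 86.5% identical to those of Serpinb6a and Serpinb9, both fell. Of the transcript words, 2.63% of those of Serpinb6a and 4.91% of those of Serpinb9 occur in other genes, and 0.291% of those of Serpinb8.

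The other 16 serpin rows are those left after the members were chosen with this contrast seen, and 9 of them passed the filter. The 3 members higher with EVs are not among them, so the counts of rises and falls below depend on that choice. With edgeR and Benjamini-Hochberg adjustment over all 13498 genes tested, 4 of the 9 fell and none rose past an adjusted p of 0.01, where 11.6% of all genes fell and 12.1% rose (1572 and 1632 genes). Without TMM scaling these 2 counts were 2342 and 1036. The count of rises was also 0 in DESeq2, in limma and at an unadjusted p under 0.05. Serpinb6b fell from 209 ± 30.2 to 27.1 ± 6.23 normalized counts (log2 fold change -2.94, SE 0.280, adjusted p = 2.54e-05). Serpinb9b fell from 180 ± 58.5 to 34.7 ± 12.8 (-2.38, SE 0.376, adjusted p = 0.000751).

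Serpine2 (protease nexin-1), a secreted inhibitor of thrombin and plasminogen activators, fell from 980 ± 84.8 to 485 ± 61.0 normalized counts (log2 fold change -1.02, SE 0.120, adjusted p = 0.000107). Serpinh1, the collagen chaperone HSP47, had a larger log2 fold change of -2.59 (SE 0.652) but an adjusted p of 0.0112 in edgeR, just over the threshold. It was called without TMM scaling (adjusted p = 0.00869), without the filter (0.00836), with the replicate block (8.14e-06, log2 fold change -2.91) and in limma (0.00334), but not in DESeq2 (0.0220). Without EV replicate 1 its log2 fold change was -3.99 (adjusted p = 0.000132 in edgeR). It was not called when any other sample was left out (adjusted p 0.0111 to 0.0505 in edgeR). Serpina11, Serpinc1 (antithrombin) and Serpini1 (neuroserpin) had adjusted p-values of 0.430, 0.611 and 0.152 in edgeR, and 37.2% of the transcript words of Serpina11 occur in another gene. The 7 other rows that did not pass the filter were Serpinb1c, Serpinb1b, Serpinb12, Serpina10, Serpina3b, Serpina3i and Serpinf2. Serpinb10 came to an adjusted p of 0.00915 and a log2 fold change of 1.22 without sham replicate 1.

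**Figure D3:**
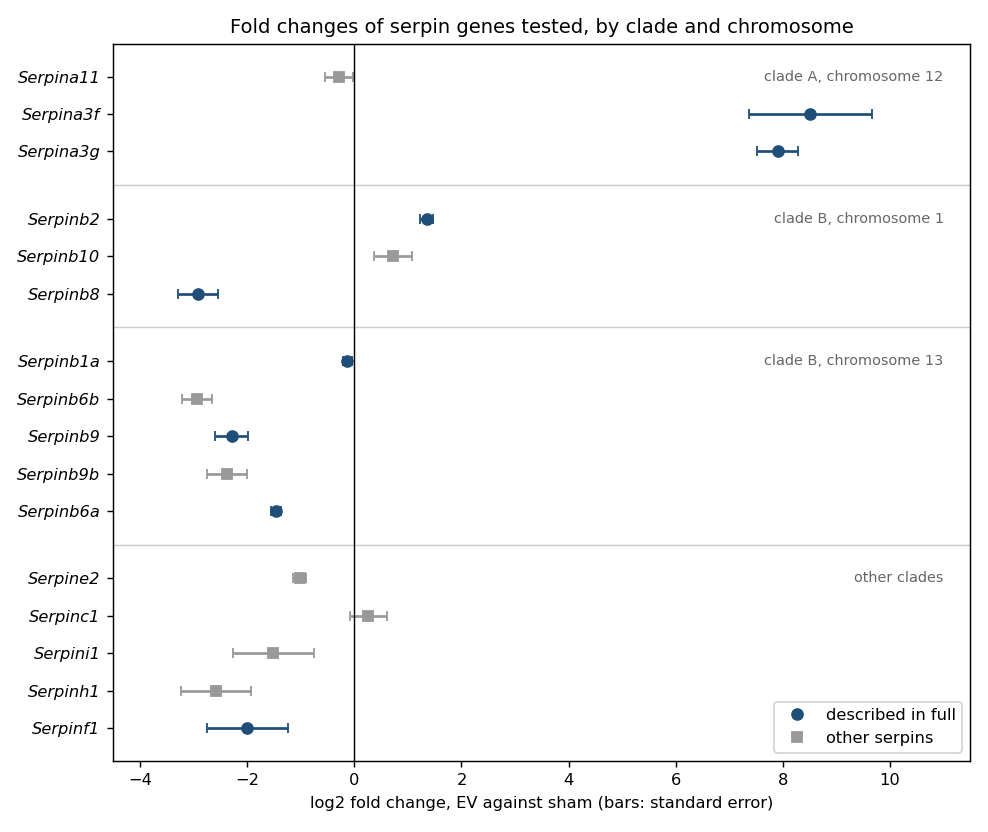
Log2 fold change, EV against sham, of serpins tested, by clade and chromosome, with standard errors; circles are the serpins described in full and squares the others. Serpina3f and Serpina3g lie farthest to the right, the fitted value of Serpina3f depending on the prior count because its sham samples are at 0, and the clade B genes of chromosome 13 lie left of 0.

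Several of the lowered serpins shared their lowest or highest sample within a group with marker lists. Serpinf1 and Serpinh1 were lowest among sham samples in sham replicate 2 and highest among EV samples in EV replicate 1, as was the stromal list (23043, 12786 and 23965 in sham and 8495, 1843 and 2407 in EV samples). Serpinb6a, Serpinb6b, Serpinb8 and Serpinb9 were lowest among sham samples in sham replicate 1, as was the macrophage list (84572, 133279 and 130823 in sham and 45427, 52345 and 52041 in EV samples), while Serpinb9b was highest in that sample. Among EV samples the macrophage list was lowest in EV replicate 1, as were Serpinb6a, Serpinb6b and Serpinb9, whereas Serpinb8 was highest there and Serpinb9b was highest there too. Some of these ranks rest on small differences. As a percent of the highest sample, Serpinb8 stood at 92.3%, 100% and 94.9% in sham, where the macrophage list stood at 63.5%, 100% and 98.2%. Serpinb6a stood at 31.3%, 33.1% and 32.3% in EV replicates 1, 2 and 3. Which serpins to set beside which list was chosen after the values were seen. The part of macrophage or stromal RNA in these results was not tested.

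**Figure D4:**
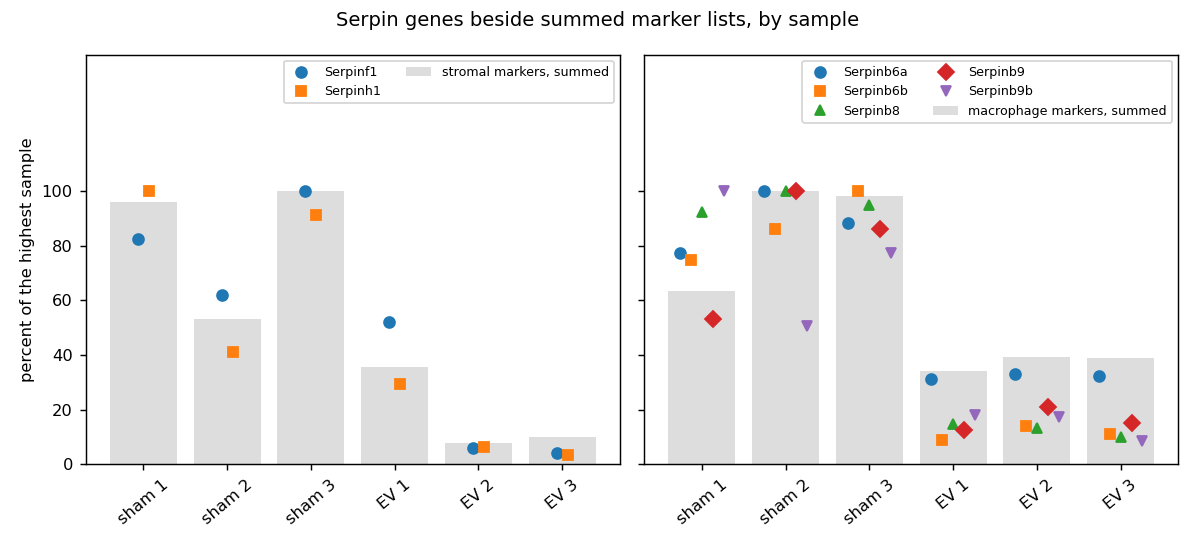
Serpin genes (points) beside summed marker lists (bars), each as a percent of its highest sample, in the 6 samples; stromal markers on the left and macrophage markers on the right. Serpinf1 stands at 52.1% in EV replicate 1 against 5.82% and 4.06% in EV replicates 2 and 3. The macrophage bars include Adgre1, which was higher with EVs and makes up most of the EV sums.

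Serpins act on proteases, so the genes of the enzyme kinds that these clades inhibit were taken as well. Of 53 listed proteases, 31 were tested, 5 rose and 10 fell (median log2 fold change -0.23). The lists were counted in edgeR, beside the shares of 12.1% higher and 11.6% lower over all genes, and differences between lists were not tested. Of 6 tested granule serine proteases 3 rose and none fell, while of 13 tested cathepsins 1 rose and 8 fell. The falls of cathepsins stand beside those of the macrophage list, of which 9 of 11 tested genes fell. Of 7 tested plasminogen, complement and contact proteases 2 fell and none rose, and of 5 convertases and inflammatory caspases 1 rose and none fell. The 0 counts were also 0 in DESeq2 and limma for falls of granule proteases and rises of plasminogen-type proteases, with 0 and 1 at an unadjusted p under 0.05, and for falls of convertases and caspases they were 1 in DESeq2, 0 in limma and 1 unadjusted.

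Granzyme B (Gzmb), the target of Serpinb9, was at 0 in all sham samples and at 22.0, 31.7 and 20.9 normalized counts in EV samples, at least 7.44-fold higher (adjusted p = 0.00226). The call was lost without any 1 of the EV replicates (adjusted p 0.0106 to 0.0181). Furin, the target of Serpinb8, rose from 15104 ± 865 to 33537 ± 622 (log2 fold change 1.15, SE 0.0565, adjusted p = 3.69e-07). In both pairs the protease was higher where its inhibitor was lower. Serpinb8 rests on 17, 18 and 13 estimated counts in the EV samples. Whether protease and inhibitor were in the same cells was not tested.

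Urokinase (Plau), the target of Serpinb2, fell from 1079 ± 337 to 235 ± 31.8 normalized counts (log2 fold change -2.20, SE 0.227, adjusted p = 4.40e-05), while Serpinb2 was higher with EVs. The urokinase receptor Plaur rose (0.76, SE 0.0948, adjusted p = 0.000160). Cathepsin B (Ctsb), one of the enzymes that Serpina3g restrains, fell from 67167 ± 19845 to 13177 ± 2600 (-2.35, SE 0.218, adjusted p = 2.08e-05). Like the macrophage list, Ctsb, Plau and Lgmn were lowest among sham samples in sham replicate 1, and Ctsb and Lgmn were also lowest among EV samples in EV replicate 1. The part of macrophage RNA in these falls was not tested. Cathepsin G (Ctsg) and proteinase 3 (Prtn3) are targets of clade B serpins of granulocytes. Neither was called: Ctsg differed by 1.16 (adjusted p = 0.145) and Prtn3 by 0.84 (adjusted p = 0.0476) on the log2 scale. Neutrophil elastase (Elane) was not among the genes counted, so no value is given for it.

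Among the other proteases, legumain (Lgmn) fell by 2.44 on the log2 scale (adjusted p = 1.24e-05). Cathepsin K (Ctsk) fell by 2.38 (adjusted p = 0.00362), a call that was lost without sham replicate 1, sham replicate 3, EV replicate 2 or EV replicate 3 (adjusted p up to 0.0176). Its EV values were 298, 69.4 and 72.2 normalized counts, highest in EV replicate 1 as was the stromal list, and without EV replicate 1 its log2 fold change was -3.40. Cathepsin E (Ctse) rose by 1.02 (adjusted p = 5.27e-05) and coagulation factor X (F10) fell by 1.88 (adjusted p = 6.26e-07). Mcpt8, a granule protease of basophils, rose by 2.46 (adjusted p = 0.00180) and Prss57, a protease of myeloid granules, rose by 0.73 (adjusted p = 0.000159), beside the higher mast cell and basophil list. The call of Mcpt8 was lost without sham replicate 3 (adjusted p = 0.0130).

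**Figure D5:**
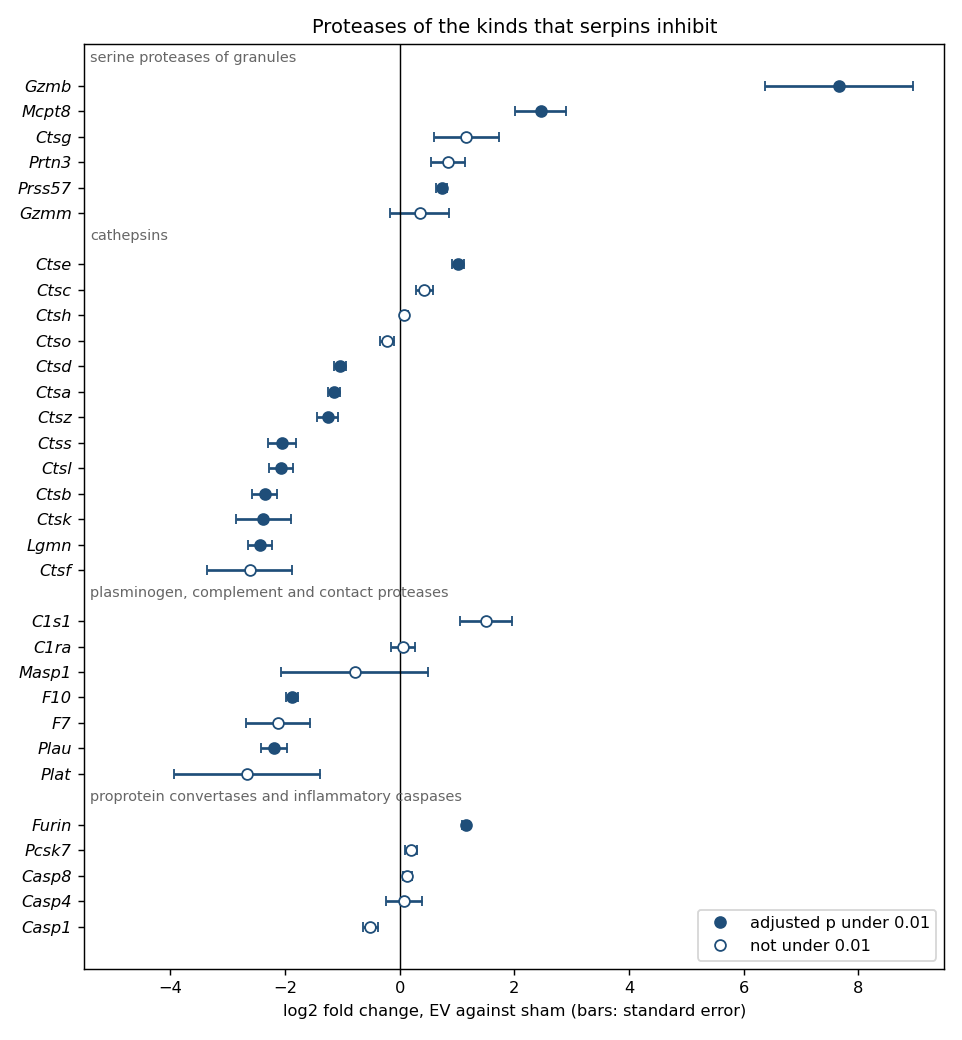
Log2 fold change, EV against sham, of the proteases tested, by kind, with standard errors; filled points passed an adjusted p of 0.01 and open points did not. Most cathepsins lie left of 0, and the granule proteases and Furin that passed lie right of it.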

How the data were processed

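RNA of 6 eosinophil cultures (3 sham, 3 EV) was sequenced. The authors deposited estimated counts per gene, made with Salmon after FastQC and Cutadapt against mm10 (submitters' notes; versions, annotation and strandedness are not given in the sources used here), and a table of normalized signal. In that deposited signal, 97518 values equal the rounded count plus 1 divided by a size factor and 6 do not (relative tolerance 1e-06). The authors' table of fold changes, p-values and mean counts was not used. Here the estimated counts were rounded and fitted over the whole table with edgeR 4.0.16 in R 4.3.3 (quasi-likelihood, TMM, filterByExpr, no block), leaving 13498 of 16254 genes, with a call at an adjusted p under 0.01. Normalized counts in the text are rounded counts scaled by each library's TMM-adjusted total, with the geometric mean of these totals as the unit. DESeq2 1.42.0 and limma 3.58.1 were alternatives. The genes named are the 9 members, the other serpins tested and, from each list, up to 3 called genes with the largest change in each direction, with a few items that these rules would name not reported here. The members and gene lists were chosen with earlier results of these data known. Sequence identity and shared words came from GENCODE vM21 transcripts, read with Python 3.11.15 and Biopython 1.88, and promoters from RefSeq (GRCm38.p6). An exact permutation test of 3 against 3 samples cannot go below 0.1. The chi-square per gene between replicates, near 1 for counting noise alone, was 13.5 to 31.8 in sham and 8.37 to 9.93 in EV samples. Counting floors cover counting error only.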

Additional observations from a re-analysis of the deposited data

How the results depend on the processing

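The counts of all genes were 1632 higher and 1572 lower with EVs. Without TMM scaling the counts were 1036 higher and 2342 lower, and with a required fold change of 2 the counts were 419 and 857. At an adjusted p under 0.05 the count lower was 2478. Leaving out 1 sample gave 1071 to 1833 higher and 1018 to 1698 lower. For the other serpins, rises were 0 to 1 over the samples left out, the 1 being Serpinb10 without sham replicate 1. Target proteases that rose were 8 at an adjusted p under 0.05 (5 in the main test). Other protease inhibitors that rose were 3 with a required fold change of 2 (8), and those that fell were 8 with the replicate block, 8 in DESeq2, 9 at 0.05 and 3 to 6 with 1 sample left out (5), 3 without sham replicate 2, EV replicate 2 or EV replicate 3. Receptors that rose were 4 at 0.05 and 0 with a required fold change of 2 (2), and those that fell 1 with that fold (3). Serpina3f had a log2 fold change of 7.80 in DESeq2 and 4.43 in limma, Serpinb1a -0.28 and Serpinb6a -1.61 without TMM scaling, and Serpinf1 -4.02 to -1.50 with 1 sample left out. The cause of these changes was not tested.

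Replicate numbers correlated weakly across groups (deviations r 0.106, 0.0831 and 0.0417), each sample best with its own number. The labels do not say whether samples with the same number are matched. The main fit used no block, and a replicate block was run as an alternative. With the replicate block the counts of all genes were 1794 higher and 1781 lower. No fold change of a member changed sign under any alternative run.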

Other observations

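Other protease inhibitors, outside the serpin family, moved in both directions: of 23 tested, 8 rose and 5 fell in edgeR. Cst7 (cystatin F), which restrains cathepsin C in granule-bearing leukocytes, rose from 717 ± 98.1 to 2931 ± 58.0 normalized counts (log2 fold change 2.03, SE 0.0981, adjusted p = 3.42e-07). Slpi, a secreted inhibitor of elastase, rose by 1.11 on the log2 scale (SE 0.114, adjusted p = 4.24e-05). Spint1 rose from 12.6 ± 10.9 to 231 ± 88.7 and lost its call without EV replicate 3 (adjusted p = 0.0119). Ctla2b, an inhibitor of cathepsin L-type enzymes, fell by 5.61 on the log2 scale, with 76.1% of its transcript words shared with other genes. Stfa1, at 0 in the EV samples, was at least 8.98-fold lower (adjusted p = 0.00434) and lost its call in every fit without 1 sample but that without sham replicate 1 (up to 0.0208). Cd109 fell by 2.46 (adjusted p = 0.00730) and lost its call in every such fit but that without sham replicate 3 (up to 0.0396).

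Of 9 receptors that bind serpins or their complexes, 2 rose and 3 fell. Plaur is among those that rose. Lrp1, the scavenger receptor that clears serpin-protease complexes, fell from 27937 ± 7592 to 2451 ± 433 normalized counts (log2 fold change -3.51, SE 0.208, adjusted p = 1.15e-06), beside the fall of the macrophage list. Sorl1 fell by 0.50 (adjusted p = 0.000110) and Vldlr fell by 0.61 on the log2 scale (adjusted p = 0.00979), Vldlr losing its call in all 6 fits without 1 sample (up to 0.0575).

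The genes whose values over the 6 samples were most like those of Serpina3g were Lrrc8c (Pearson r 0.999), Calr (0.998) and Exoc4 (0.998), on log2 of normalized counts plus 1. Their log2 fold changes were 0.98, 0.80 and 0.33, and the 6 points share the split between the groups.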
